A study of Mus musculus with 32 samples.

Results

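HNF4A peaks were examined at 7 genes of triglyceride resynthesis and chylomicron assembly, Apob, Mttp, Sar1b, P4hb, Mogat2, Dgat1 and Dgat2, in jejunal intestinal epithelial cells (IECs) of mice given a high-fat meal (HFM). Peaks of 8 libraries that shared at least 1 bp were merged, and the merged sites that lay in the body of a member gene or within 20 kb on either side were kept. This gave 59 of 45552 merged sites, with 6 at Apob, 8 at Mttp, 8 at Sar1b, 9 at P4hb, 12 at Mogat2, 5 at Dgat1 and 11 at Dgat2. The windows of Mogat2 and Dgat2, neighbours on chromosome 7, overlap but share no site. A site is named by its gene and its order along that gene, from the 5′ end, and positions follow mm9 with the gene models of GENCODE M1.

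The study crossed microbial status with a meal, and the HNF4A chromatin immunoprecipitation (ChIP-seq) lists examined here are those of the mice given the HFM. All mice were C57BL/6J males 10 to 12 weeks old. In the GF+HFM group, 4 germ-free mice received a gavage of egg-yolk emulsion and were sampled 2 hours later. In the CV+HFM group, 4 mice raised germ-free received the same meal after 14 days of colonization with a conventional microbiota. Each library came from 1 mouse, so the spread between libraries includes the spread between animals. The cells were unsorted preparations scraped from the jejunum, mostly villus epithelium with some crypts and villus mesenchyme, and a peak list cannot check the cell type against its markers.

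After a meal, enterocytes rebuild triglyceride from absorbed fatty acids and monoacylglycerol in the endoplasmic reticulum and load it onto apolipoprotein B to make chylomicrons, which leave the cell for the lymph. HNF4A is a nuclear receptor of enterocytes and hepatocytes that binds DNA as a dimer at paired copies of a short receptor motif, and lipid-handling genes are among its known targets. MOGAT2 acylates monoacylglycerol, DGAT1 and DGAT2 add the last fatty acid, MTTP and its partner P4HB transfer lipid to the growing particle, and SAR1B drives the vesicles that carry it out of the endoplasmic reticulum.

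The lists hold positions only, with no count of reads and no peak height, so the depth of a library is unknown and no counting error can be given. The width of a peak stands in for its strength here, as a width percentile, the place of the peak when its list is ranked from narrowest to widest, with peaks of equal width given the middle of their ranks. The 4 GF+HFM lists held 31061 to 36846 peaks. The CV+HFM lists held 29345, 9206, 21033 and 4533 peaks in replicates 1 to 4, so CV+HFM 2 and CV+HFM 4 stood apart. Median peak width was 298 to 464 bp in GF+HFM and fell to 103 bp in CV+HFM 4. The length of the lists therefore moved with the group. Site numbers are given below both from the full lists and from the 4533 widest peaks of each list. List length as a cause of the differences was not tested.

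Reference sequence (mm9, plus strand, 5′ to 3′) is shown for sites on which the comparisons turn. It gives the only site of the 59 present in every GF+HFM list and absent from every CV+HFM list (Apob site 1, chr12:7973170-7973355), the bases just before the starts of Apob (within Apob site 3, chr12:7984304-7984453) and of the inner coding transcript of Mttp (within Mttp site 3, chr3:137794342-137794491), and bases shared by the peaks of all 8 libraries at P4hb site 3 (chr11:120438028-120438327), Mogat2 site 8 (chr7:106373251-106373401), Mogat2 site 10 (chr7:106363414-106363713) and Dgat2 site 9 (chr7:106310084-106310383). Capitals mark a match, on either strand, to CAAAGTCCA with at most 1 mismatch, the form that HNF4 receptors prefer, or to DR1, 2 copies of AGGTCA with 1 base between them, with at most 2 mismatches.
Apob site 1: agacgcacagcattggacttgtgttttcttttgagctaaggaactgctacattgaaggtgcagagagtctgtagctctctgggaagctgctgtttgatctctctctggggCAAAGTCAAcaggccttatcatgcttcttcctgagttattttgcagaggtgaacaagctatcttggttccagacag
Apob site 3: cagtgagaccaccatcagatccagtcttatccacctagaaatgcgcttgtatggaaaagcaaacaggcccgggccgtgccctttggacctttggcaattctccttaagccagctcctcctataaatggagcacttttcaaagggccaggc
Mttp site 3: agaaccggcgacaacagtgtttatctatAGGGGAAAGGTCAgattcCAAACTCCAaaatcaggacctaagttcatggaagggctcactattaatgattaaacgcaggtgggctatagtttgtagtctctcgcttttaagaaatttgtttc
P4hb site 3: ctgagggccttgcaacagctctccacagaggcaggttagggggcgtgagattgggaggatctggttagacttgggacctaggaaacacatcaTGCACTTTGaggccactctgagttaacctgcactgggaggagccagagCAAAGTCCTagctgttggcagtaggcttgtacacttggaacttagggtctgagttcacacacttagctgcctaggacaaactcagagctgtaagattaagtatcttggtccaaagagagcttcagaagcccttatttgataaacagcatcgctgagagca
Mogat2 site 8: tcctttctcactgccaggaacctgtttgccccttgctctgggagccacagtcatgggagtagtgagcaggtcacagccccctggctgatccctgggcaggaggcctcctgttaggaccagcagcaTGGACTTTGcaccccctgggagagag
Mogat2 site 10: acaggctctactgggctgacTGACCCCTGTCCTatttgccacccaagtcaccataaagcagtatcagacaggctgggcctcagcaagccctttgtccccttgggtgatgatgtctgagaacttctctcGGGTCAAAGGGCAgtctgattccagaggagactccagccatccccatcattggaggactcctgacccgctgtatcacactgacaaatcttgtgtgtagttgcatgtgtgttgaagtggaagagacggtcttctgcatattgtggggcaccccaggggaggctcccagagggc
Dgat2 site 9: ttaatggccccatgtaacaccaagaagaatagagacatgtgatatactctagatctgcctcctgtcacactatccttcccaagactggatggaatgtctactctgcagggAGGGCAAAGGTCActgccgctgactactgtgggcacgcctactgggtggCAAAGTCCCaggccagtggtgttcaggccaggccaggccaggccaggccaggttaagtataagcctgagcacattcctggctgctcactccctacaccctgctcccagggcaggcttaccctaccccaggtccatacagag

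Both kinds of match stood before the inner Mttp start, DR1 from 41 to 29 bp and CAAAGTCCA from 55 to 47 bp upstream of it. They lay near, but outside, a stretch of 47 bp, the longest of 2 shared by the peaks of all 8 libraries. The 150 bp before the Apob start held neither, and the exact CAAAGTCCA of Apob site 3 lay farther upstream, from 7984050 to 7984058. Dgat2 site 9 carried a DR1 with 1 mismatch and a CAAAGTCCA with 1 mismatch in its shared bases, and Mogat2 site 8 was the only site called in all 8 libraries with an exact CAAAGTCCA there. In windows of 300 bp at site midpoints, CAAAGTCCA with at most 1 mismatch was present in 20 of the 59 sites (33.9%) and in 34.4% of 45324 sites genome-wide. DR1 with at most 2 mismatches was present in 8 of 59 (13.6%) and in 15.7% of all sites. In these windows the share of sites with these letters was thus close to that of all sites. Across the whole width of the 59 sites there were 34 CAAAGTCCA and 16 DR1 matches, and 2 of the 34 overlapped a DR1. The only exact DR1 stood in Mogat2 site 5, which was called in CV+HFM 1 alone, in intron 1 from 106382990 to 106383002.

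Every one of the 7 genes had at least 1 HNF4A site called in all 8 mice, as did 25.7% of all protein-coding genes with a site. The 7 genes also held more sites, a median of 8 against 3 for those genes. In all, 14 of the 59 sites (23.7%) were called in all 8 libraries, where the share over all merged sites was 7.56%. Of these 14, 5 lay at Mogat2, 2 each at Mttp, Sar1b and Dgat1, and 1 each at Apob, P4hb and Dgat2, and 11 lay within a gene body. Calls in all 4 GF+HFM libraries were made at 39 of 59 sites (66.1%), against 50.6% of all merged sites. Without CV+HFM 2 and CV+HFM 4, 32 of 59 sites were called in all 6 remaining libraries, and 38.1% of all sites.

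Fewer of these sites were called after colonization, as over the whole genome. The GF+HFM libraries called 50, 46, 44 and 49 of the 59 sites, and the CV+HFM libraries called 42, 19, 33 and 15. The groups did not overlap, and neither did they over all merged sites. There the GF+HFM libraries called 64.0% to 76.4% and the CV+HFM libraries 8.97% to 60.8%. Every library called a larger share of the 59 sites than of all merged sites, with 84.7% against 76.4% in GF+HFM 1 and 25.4% against 8.97% in CV+HFM 4 at the ends of the range. The sites at the 7 genes made up 1.34 to 1.58 per 1000 sites called in the GF+HFM libraries, and 1.52, 2.17, 1.67 and 3.67 per 1000 in CV+HFM 1 to 4. The shortest lists thus held the largest proportion of these sites. Of the 15 sites called in CV+HFM 4, 14 were those called everywhere, and over all merged sites 3445 of its 4087 were.

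**Figure D1:**
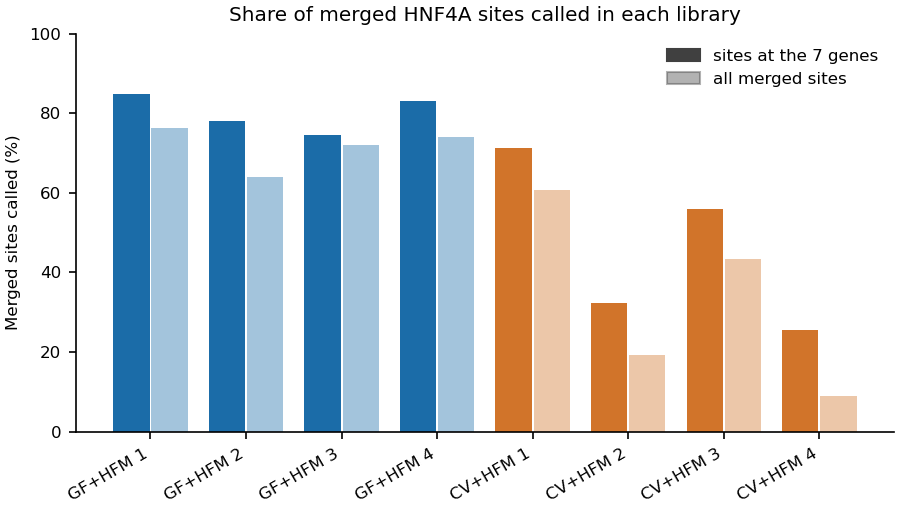
Share of merged HNF4A sites called in each library (y axis, percent), for the 59 sites at the 7 genes (dark bars) and all 45552 merged sites (pale bars), with GF+HFM in blue and CV+HFM in orange. The dark bar is the taller in all 8 libraries, and the lowest pair, 25.4% and 8.97%, is CV+HFM 4.

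Calls at single sites rarely separated the groups. Apob site 1 was the only 1 of the 59 found in every GF+HFM library and in no CV+HFM library, a pattern held by 2.79% of all merged sites (Fisher's exact test, two-sided, p = 0.0286, the smallest this design allows, and 0.824 after Benjamini-Hochberg adjustment over all 45552 sites). No site showed the reverse. More GF+HFM than CV+HFM libraries called 43 sites, equal numbers called 15, and Mogat2 site 5 alone had more in CV+HFM. These are 72.9%, 25.4% and 1.69% of the 59, against 86.5%, 10.7% and 2.86% of all merged sites. Without CV+HFM 1, the longest list of its group, 7 of the 59 sites were called in every GF+HFM and no remaining CV+HFM library. Over all sites the share was 10.9%.

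**Figure D2:**
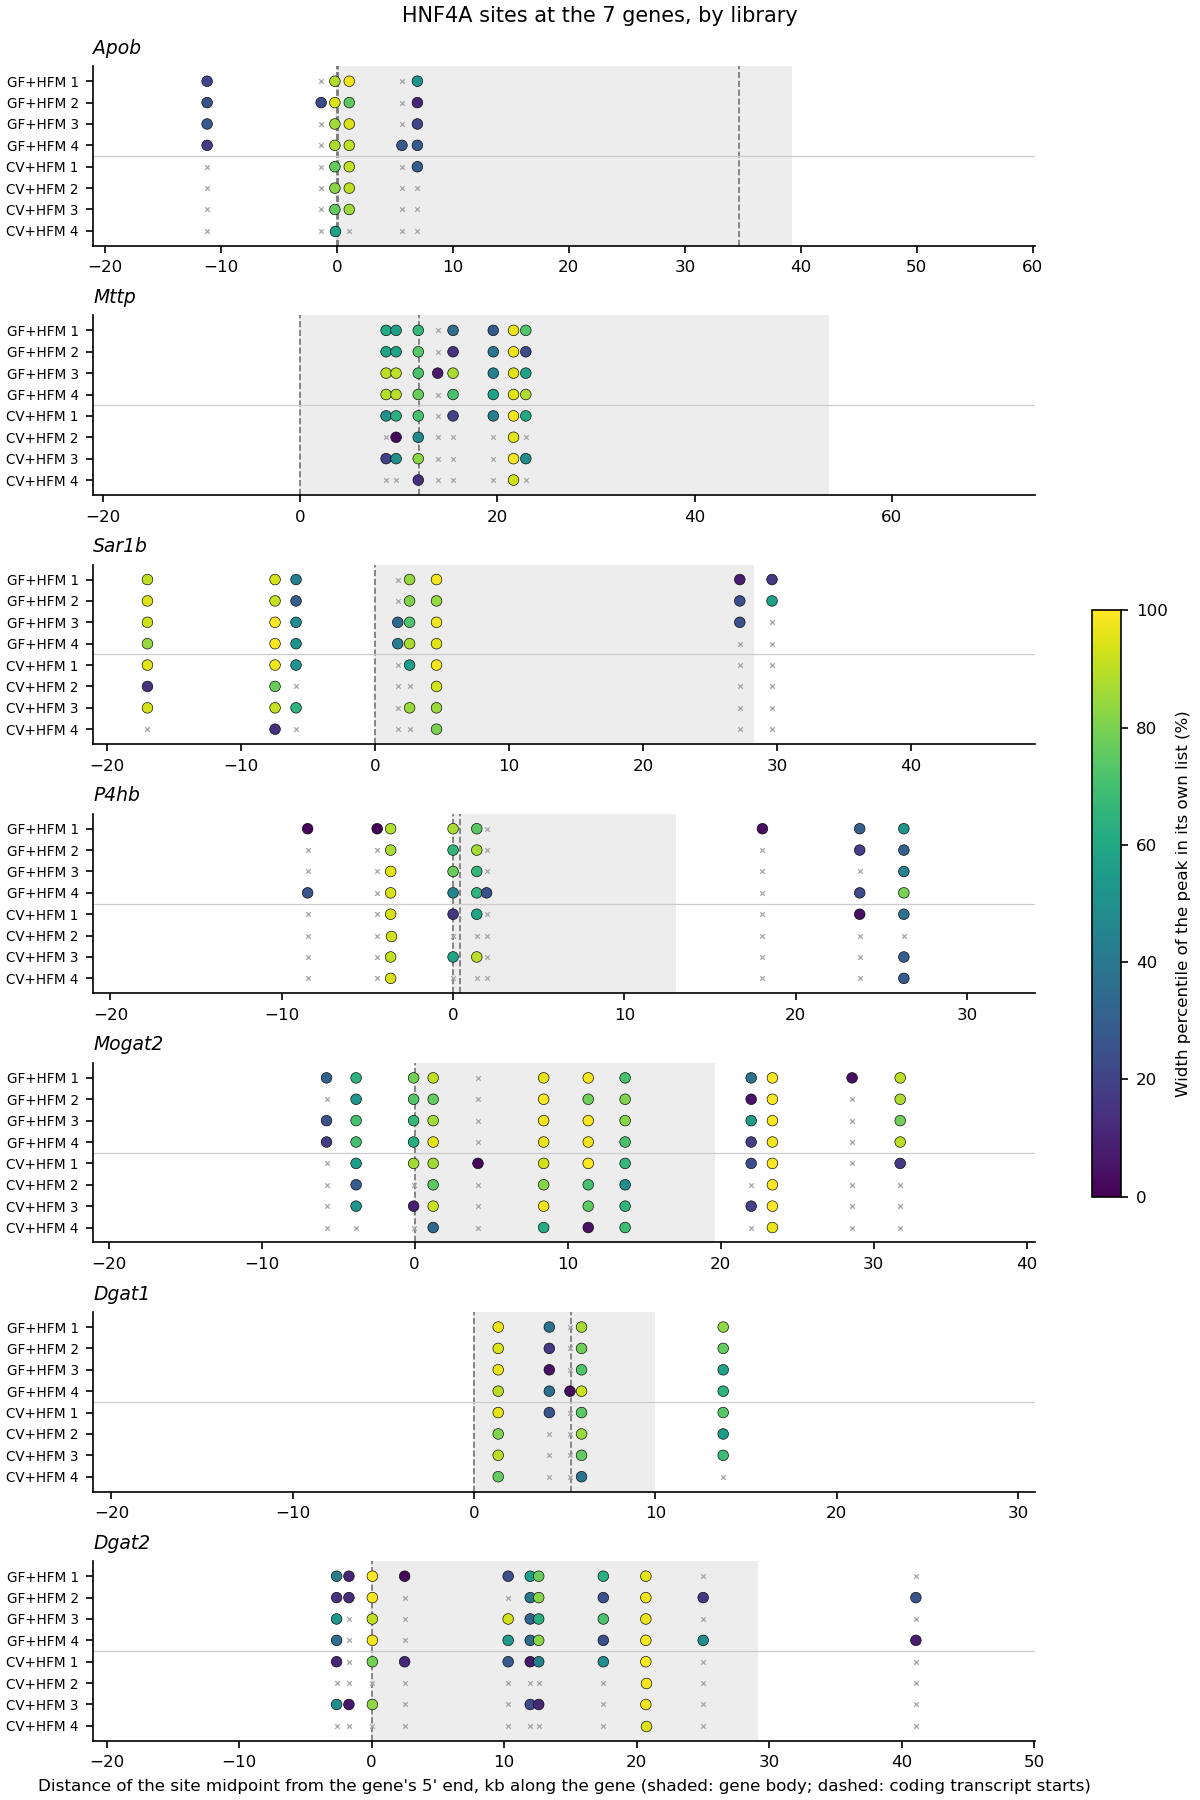
HNF4A sites at each of the 7 genes, by distance of the site midpoint from the 5′ end of the gene (x axis, kb along the gene) and by library (y axis). Filled circles are sites called in that library, coloured by the width percentile of the peak in its own list, crosses are sites not called, shading is the gene body, and dashed lines are starts of coding transcripts. Columns of 8 circles are the 14 sites called in every library, and the 4 circles farthest left at Apob are Apob site 1.

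Apob encodes apolipoprotein B, the structural protein of the chylomicron, from 7984454 to 8023641 of chromosome 12, plus strand. Its HNF4A sites lay at the 5′ end, with none beyond Apob site 6, 6943 bp into a body of 39188 bp. Apob site 3 (7983860 to 7984703) covered the start and was called in all 8 libraries. Its width percentile was 88.1, 94.4, 85.6 and 87.4 in GF+HFM 1 to 4 and 76.3, 82.5, 76.3 and 57.8 in CV+HFM 1 to 4. Each CV+HFM peak ranked below each GF+HFM peak in its own list, with means of 88.9 ± 3.82 and 73.2 ± 10.7 (SD, n = 4 each). The groups separated in this way at 2 of the 14 sites called everywhere at these genes, Mogat2 site 8 being the other, and at 7.05% of the 3445 sites called in all 8 libraries. Ranked only among the 3445 sites called in all 8 libraries, the groups overlapped, with ranks of 54.1 ± 12.8 and 43.4 ± 16.7 (SD, n = 4 each; limma, adjusted p = 0.788). Apob site 4 (7985020 to 7986027), in intron 2, was missed in CV+HFM 4 alone. It stood at 98.0, 74.6, 94.3 and 90.0 in GF+HFM 1 to 4 and at 90.8, 89.9 and 85.1 in CV+HFM 1 to 3, within the range of GF+HFM.

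Apob site 1 (7973113 to 7973416), 11190 bp before the start, was a narrow site. Its peaks were 213, 226, 302 and 291 bp wide in GF+HFM 1 to 4, at width percentiles of 20.7, 25.5, 27.4 and 17.7, and no CV+HFM library called it. All 4 values are among the lower ones of their lists. The other 3 Apob sites were called in 1 to 4 GF+HFM and 0 or 1 CV+HFM libraries, at percentiles of 10.5 to 52.2.

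Mttp encodes the large subunit of the microsomal triglyceride transfer protein, which loads lipid onto apolipoprotein B, and runs from 137752819 to 137806352 of chromosome 3, minus strand. GENCODE M1 gives it 2 coding starts, the outer at 137806352 and the inner at 137794341. All 8 Mttp sites lay inside the gene, from 8703 to 22880 bp downstream of the outer start, and none covered that start. Mttp site 3 (137794046 to 137794726) covered the inner start and was called in all 8 libraries, at percentiles of 66.6, 73.7, 71.1 and 76.7 in GF+HFM 1 to 4 and 71.0, 47.2, 82.5 and 12.8 in CV+HFM 1 to 4. The groups overlapped, since CV+HFM 1 and 3 stood with the GF+HFM libraries and CV+HFM 4 far below them. Mttp site 7 (137784159 to 137785279), in intron 5, was among the widest peaks of every list, at 96.9, 97.1, 95.0 and 95.3 in GF+HFM and 97.8, 95.6, 99.0 and 92.7 in CV+HFM. The group means there were 96.1 ± 1.07 and 96.3 ± 2.75 (SD, n = 4 each). Mttp site 7 was also ranked among the 3445 sites called in all 8 libraries. Ranks in that set averaged 80.3 ± 3.87 for GF+HFM and 91.1 ± 3.16 for CV+HFM (SD, n = 4 each). The lowest CV+HFM rank, 88.0, lay above the highest GF+HFM rank, 84.7, but the difference did not pass the test (limma, adjusted p = 0.569). Of the other 6 Mttp sites, 5 were found in every GF+HFM mouse and in 1 to 3 CV+HFM mice each, and Mttp site 4 was called in GF+HFM 3 alone.

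P4hb encodes protein disulfide isomerase, the partner subunit of MTTP, and runs from 120421612 to 120434567 of chromosome 11, minus strand. P4hb site 3 (120437667 to 120438762), 3647 bp before the start, was called in all 8 libraries. Its width percentile was 88.1, 87.4, 95.6 and 94.1 in GF+HFM 1 to 4 and 93.8, 92.5, 90.4 and 94.5 in CV+HFM 1 to 4, and the groups overlapped. CV+HFM 4, far below the rest at several other sites, stood within the range of GF+HFM here. P4hb site 4 (120434193 to 120434950), over the start, was called in 4 GF+HFM libraries, at 86.8, 65.4, 77.2 and 45.1, and in CV+HFM 1 and 3, at 16.3 and 57.9 (Fisher's exact test of the calls, two-sided, p = 0.429). P4hb site 9 lay nearer to the start of another gene, Fam195b, and was missed in CV+HFM 2 alone. It stood at 52.7, 30.1, 44.0 and 79.5 in GF+HFM 1 to 4 and at 37.3, 29.4 and 28.2 in CV+HFM 1, 3 and 4. The other 6 sites included 3 called in 1 library, and the window of P4hb, in a gene-dense stretch, held 5 sites nearer to the starts of Arhgdia, Dysfip1 or Fam195b.

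Sar1b encodes the small GTPase that starts COPII vesicle budding, and its loss in people blocks chylomicron secretion. It runs from 51577189 to 51605427 of chromosome 11, plus strand, and no site covered its start. Sar1b site 6 (51581206 to 51582372), in intron 1, was called in all 8 libraries, at percentiles of 98.4, 83.7, 97.7 and 95.6 in GF+HFM 1 to 4 and 98.7, 93.0, 84.6 and 80.0 in CV+HFM 1 to 4. The groups overlapped, at 93.8 ± 6.90 and 89.1 ± 8.38 (SD, n = 4 each). Sar1b site 2 (51568840 to 51570646), also called in all 8 libraries, had its midpoint at -7446 bp from the Sar1b start and 7393 bp from the start of Sec24a, which encodes a cargo-binding subunit of the same COPII coat. It stood at 93.4, 91.3, 99.8 and 99.4 in GF+HFM 1 to 4 and at 97.4, 77.3, 91.2 and 13.9 in CV+HFM 1 to 4. Its peak was 1784 and 1720 bp wide in GF+HFM 3 and 4 and 56 bp wide in CV+HFM 4, where the narrowest peaks of the list were 52 bp. This site had the smallest adjusted p of the 14 for width rank (limma, adjusted p = 0.443). The other 6 sites were called in 2 to 4 GF+HFM and 0 to 3 CV+HFM libraries.

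Mogat2 encodes the intestinal monoacylglycerol acyltransferase, the opening step of triglyceride resynthesis, and runs from 106367594 to 106387129 of chromosome 7, minus strand. It held the most sites of the 7 genes, 12, and 5 of them were called in all 8 libraries. Mogat2 site 10 (106363030 to 106364469), 23380 bp downstream of the start and beyond the 3′ end, was at the top of every list, at 99.5, 99.6, 99.1 and 98.4 in GF+HFM 1 to 4 and 99.7, 99.9, 99.9 and 97.0 in CV+HFM 1 to 4. The group means were 99.1 ± 0.527 and 99.1 ± 1.42 (SD, n = 4 each). No other of the 59 sites stood as high on average.

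The remaining 4 Mogat2 sites of this kind lay in its introns. Mogat2 site 6 (106378065 to 106379334), in intron 2, stood at 96.4, 99.3, 97.6 and 96.6 in GF+HFM 1 to 4 and at 93.0, 81.7, 98.0 and 61.0 in CV+HFM 1 to 4. Mogat2 site 7 (106375023 to 106376547), in the same intron, stood at 98.9, 78.2, 98.7 and 98.5 in GF+HFM and at 99.4, 70.4, 75.2 and 5.01 in CV+HFM. At both sites CV+HFM 2 and CV+HFM 4 were lowest. The groups overlapped, since CV+HFM 3 stood within the range of GF+HFM at Mogat2 site 6 and CV+HFM 1 stood highest of all libraries at Mogat2 site 7. Mogat2 site 4 (106385302 to 106386537), in intron 1, stood at 90.9, 76.0, 86.5 and 95.9 in GF+HFM and at 85.7, 74.8, 91.9 and 33.5 in CV+HFM. Mogat2 site 8 (106373012 to 106373737), in intron 2, stood at 70.8, 81.2, 81.9 and 71.3 in GF+HFM and at 66.7, 48.6, 65.0 and 69.0 in CV+HFM. There all 4 CV+HFM values lay below all 4 GF+HFM values, at 62.3 ± 9.26 and 76.3 ± 6.07 (SD, n = 4 each). Among the 3445 sites called everywhere, the 4 GF+HFM ranks averaged 26.2 ± 11.5 and the 4 CV+HFM ranks 28.6 ± 21.5, so the direction turned with the set of peaks ranked (limma, adjusted p = 0.976). Mogat2 site 3 (106386909 to 106387485), over the start, stood at 78.6, 73.1, 67.1 and 62.4 in GF+HFM 1 to 4 and at 86.2 and 9.07 in CV+HFM 1 and 3, and CV+HFM 2 and 4 lacked it.

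Dgat1 and Dgat2 encode unrelated acyltransferases for the last step to triglyceride. Dgat1 runs from 76332445 to 76342381 of chromosome 15, minus strand, with coding starts at 76342381 and 76337035. Dgat1 site 1 (76340520 to 76341576), in intron 1 and 1333 bp from the start, was called in all 8 libraries, at 97.0, 94.4, 96.5 and 89.5 in GF+HFM 1 to 4 and at 95.9, 80.5, 89.8 and 76.4 in CV+HFM 1 to 4. Dgat1 site 4 (76335958 to 76336948), in intron 2, stood at 86.9, 77.8, 72.6 and 91.8 in GF+HFM and at 74.8, 84.4, 76.0 and 38.0 in CV+HFM. The groups overlapped at both sites. Dgat1 site 3, over the inner start, was called in GF+HFM 4 alone at a percentile of 3.06. The other 2 Dgat1 sites were found in every GF+HFM mouse, 1 of them in 1 and 1 in 3 CV+HFM mice.

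Dgat2 runs from 106302173 to 106331223 of chromosome 7, minus strand. Dgat2 site 3 (106330415 to 106331924), over the start, was a wide peak of the GF+HFM lists, at 99.4, 99.1, 91.0 and 98.4, and was called in CV+HFM 1 and 3 at 78.5 and 83.5. Both CV+HFM values lay below all GF+HFM values, and CV+HFM 2 and 4 lacked the site (Fisher's exact test of the calls, two-sided, p = 0.429). The order of these percentiles, from lists of unlike length, was not tested, and its share over all sites was not counted. Without calls in all 8 libraries, Dgat2 site 3 has no rank among the 3445 sites. Dgat2 site 9 (106309777 to 106311286), in intron 4, was the only Dgat2 site called in CV+HFM 2 and in CV+HFM 4. It stood at 95.8, 98.0, 96.8 and 98.7 in GF+HFM 1 to 4 and at 99.0, 98.8, 97.8 and 94.5 in CV+HFM 1 to 4, with means of 97.3 ± 1.30 and 97.5 ± 2.06 (SD, n = 4 each). The other 9 sites were called in 1 to 4 GF+HFM and 0 to 2 CV+HFM libraries, at percentiles of 1.46 to 92.8. The last 2, Dgat2 sites 10 and 11, lay nearer to the start of Uvrag.

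Of the 59 sites, 12 lay upstream, 6 over a coding start, 30 in introns away from a start, 1 in an exon and 10 downstream of the gene. Of the 6 sites over a coding start, those at Apob and Mttp were called in all 8 libraries, those at P4hb, Mogat2 and Dgat2 in every GF+HFM library and in CV+HFM 1 and 3, and that at Dgat1 in 1. The 14 sites called everywhere were wide within their lists. Their median width percentile was 94.7 over their 56 GF+HFM peaks, against 52.5 over the 133 GF+HFM peaks of the other 45 sites. In CV+HFM the medians were 84.5 over 56 peaks and 48.5 over 53 peaks, and the lowest value at a site called everywhere was 5.01. The 14 were also ranked by width among the 3445 sites called in all 8 libraries. Their mean GF+HFM ranks there ran from 19.1 at Mttp site 3 to 94.6 at Mogat2 site 10. Whether the 14 were wider in the full lists than other sites called everywhere was not tested. The 9 sites called in 1 library were at percentiles of 1.46 to 27.5.

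Relative width at the 14 sites did not pass the test in either direction. Normal scores of the width rank among the 3445 sites called in all 8 libraries were compared with limma, which gave 0 of the 14 sites past an adjusted p of 0.05, against 0.116% of the 3445 sites (4 sites), and 0 of the 14 at an unadjusted p under 0.05, against 398 of the 3445 (11.6%). The difference, CV+HFM minus GF+HFM, ran from -1.06 (SE 0.62) at Mogat2 site 7 to 0.64 (SE 0.37) at Mogat2 site 10 in SD units of the scores, and was negative at 7 of the 14 and at 47.4% of the 3445. Standard errors were 0.35 to 0.62.

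**Figure D3:**
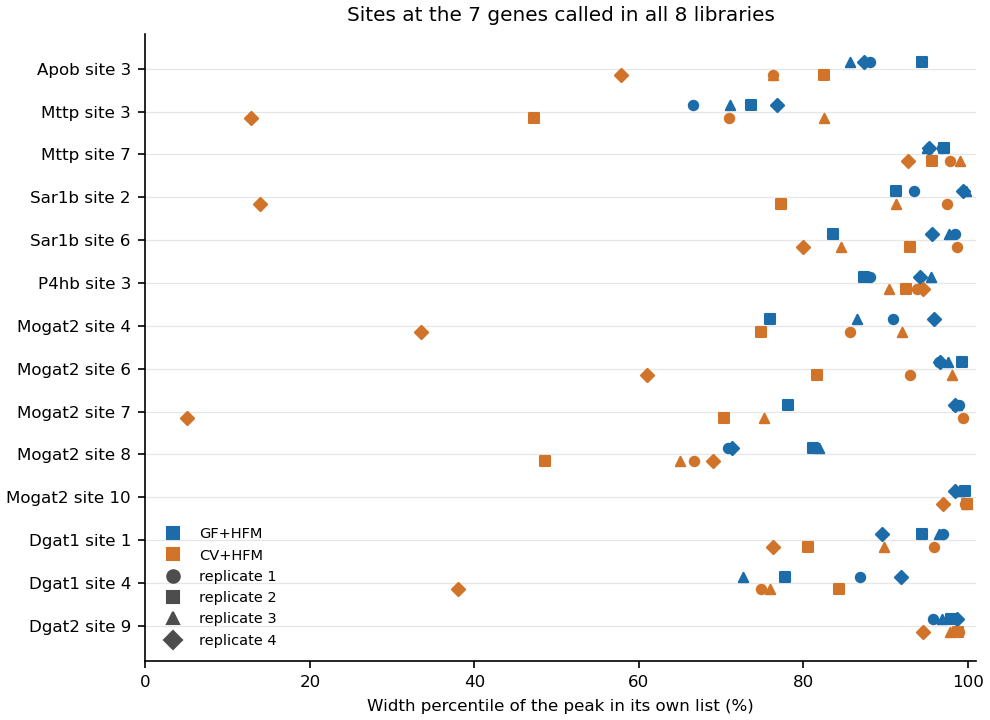
Width percentile of the peak within its own list (x axis, percent) at the 14 sites called in all 8 libraries, 1 row per site, with GF+HFM in blue, CV+HFM in orange and 1 marker shape per replicate number. Mogat2 site 10, Dgat2 site 9 and Mttp site 7 lie above 92 in every library, and the lowest values, 5.01, 12.8 and 13.9, are CV+HFM 4 at Mogat2 site 7, Mttp site 3 and Sar1b site 2.

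Gene by gene, the mean number of sites called was lower in CV+HFM at all 7 genes, with a median ratio of CV+HFM to GF+HFM of 0.556 against 0.444 over all genes with a site. With the 4533 widest peaks of each list, the difference, CV+HFM minus GF+HFM, was 0 at Sar1b, 0.25 at P4hb and at Mogat2 and 0.5 at Dgat1. It was -0.25 at Apob, no larger in size than at P4hb, and -1 at Mttp and at Dgat2. In that setting 0 of the 7 genes had more sites in every GF+HFM library, against 0.735% of all genes. Apob had 4, 5, 4 and 5 sites called in GF+HFM 1 to 4 and 3, 2, 2 and 1 in CV+HFM 1 to 4. Sar1b had 7, 7, 7 and 6 in GF+HFM and 5, 3, 5 and 2 in CV+HFM. At these 2 of 7 genes every GF+HFM library had more sites than any CV+HFM library, as at 12.2% of 14653 protein-coding genes with a site (exact permutation test over 70 relabellings, two-sided, p = 0.0286, the smallest possible, and adjusted p = 0.234 over all genes). No gene of the genome passed an adjusted p of 0.05.

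At the other 5 genes the groups overlapped. Mttp had 7, 7, 8 and 7 sites called in GF+HFM 1 to 4 and 7, 3, 5 and 2 in CV+HFM 1 to 4. P4hb had 8, 5, 4 and 7 in GF+HFM and 5, 1, 4 and 2 in CV+HFM, and Mogat2 had 11, 9, 10 and 10 and then 10, 6, 8 and 5. Dgat1 had 4, 4, 4 and 5 in GF+HFM and 4, 3, 3 and 2 in CV+HFM, and Dgat2 had 9, 9, 7 and 9 and then 8, 1, 6 and 1. CV+HFM 1 reached the GF+HFM range at all 5, and the lowest value was that of CV+HFM 2 or CV+HFM 4 at each. Dgat2 had the widest span, from 8 sites in CV+HFM 1 to 1 site in CV+HFM 2 and in CV+HFM 4. Without CV+HFM 1, 6 of the 7 genes had groups that did not overlap, as did 38.1% of all genes.

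**Figure D4:**
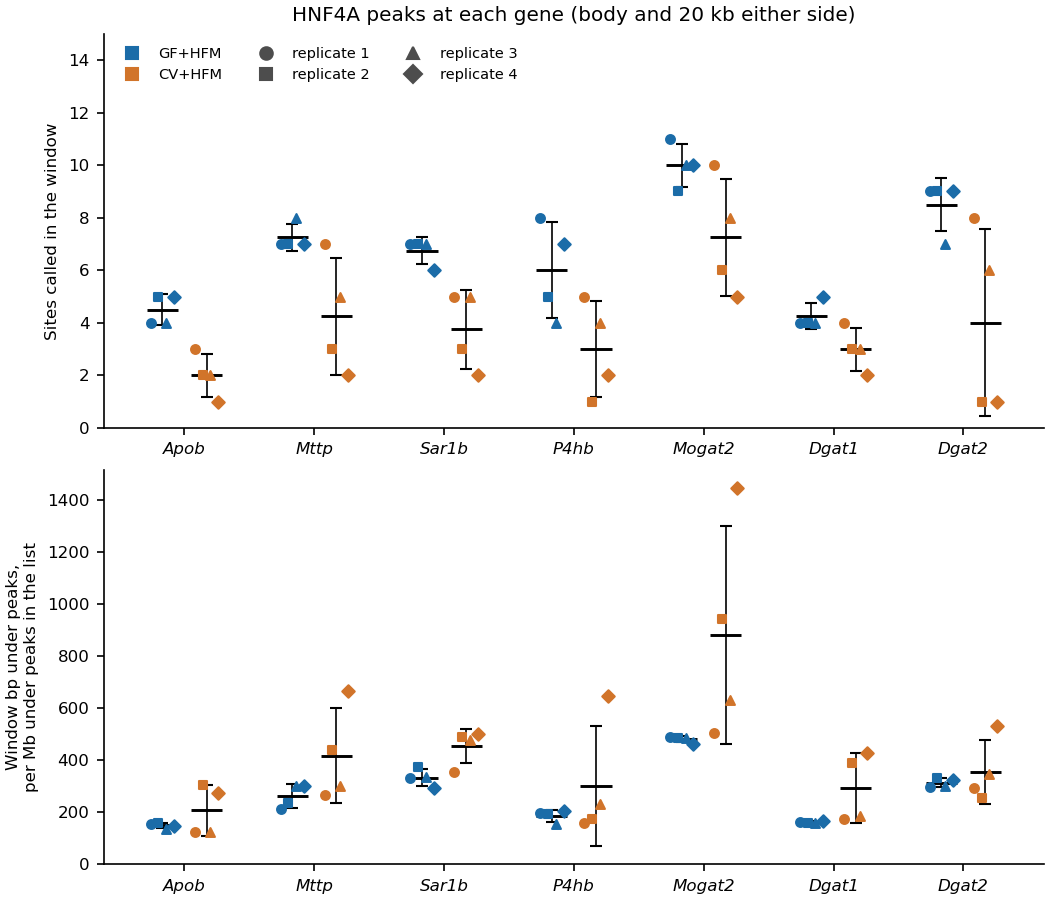
HNF4A sites called (upper panel, number) and bp under peaks per Mb under peaks in the whole list (lower panel) in the window of each gene, its body and 20 kb on either side, for each library (points, 1 shape per replicate number), with the mean (bar) and SD (whiskers, n = 4) of GF+HFM (blue) and CV+HFM (orange). Mean site numbers from the full lists are lower in CV+HFM, with no overlap at Apob and Sar1b. With lists of equal length the difference is -0.25 at Apob, -1 at Mttp and at Dgat2, and 0 or above elsewhere. The covered share is higher in every CV+HFM library at Mogat2 and Dgat1.

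Summed over the 7 windows and taken as a share of each list, peak coverage in CV+HFM lay within or above the range of GF+HFM, although CV+HFM 1 and 3 at Apob and CV+HFM 1 and 2 at Dgat2 lay below it. The bp under peaks in the 7 windows amounted to 1836, 1935, 1868 and 1899 per Mb under peaks in GF+HFM 1 to 4 and to 1867, 2993, 2293 and 4491 in CV+HFM 1 to 4. The covered length itself was 20.5 to 34.9 kb in GF+HFM and 2.80 to 19.9 kb in CV+HFM. At Mogat2 the share was 487, 486, 486 and 464 bp per Mb in GF+HFM 1 to 4 and 504, 942, 633 and 1447 in CV+HFM 1 to 4. At Dgat1 it was 164, 159, 157 and 165 in GF+HFM and 172, 390, 183 and 428 in CV+HFM. These 2 of 7 genes had a larger share in every CV+HFM library, as did 3.39% of all genes (exact permutation test, two-sided, p = 0.0286, adjusted p = 0.296), and 0 of 7 had a larger share in every GF+HFM library, as did 6.27%. In CV+HFM 1, the longest list of its group, the gap at both genes was small.

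At the other 5 genes the shares of the groups overlapped. Means for GF+HFM and then CV+HFM were 262 ± 46.2 and 418 ± 182 at Mttp, 332 ± 33.4 and 454 ± 66.7 at Sar1b, and 186 ± 22.3 and 302 ± 231 at P4hb (SD, n = 4 each). They were 313 ± 17.6 and 355 ± 123 at Dgat2 and 149 ± 9.15 and 207 ± 97.4 at Apob (SD, n = 4 each). The spread was larger in CV+HFM at each of them, and CV+HFM 4 decided the direction at Dgat2. Without it the difference, CV+HFM minus GF+HFM, went from 115 to 0.92 bp per Mb at P4hb and from 42.5 to -16.1 at Dgat2. Without CV+HFM 2 and CV+HFM 4, the mean share at Apob was 123 in CV+HFM against 149 in GF+HFM, the reverse of the direction with all libraries. Both remaining Apob values, 122 and 124, lay below every GF+HFM value, while Mogat2 and Dgat1 kept the larger share in both remaining CV+HFM libraries. The groups thus did not overlap at 3 of 7 genes, as at 17.5% of all genes in that setting. With 4 libraries against 2, no p under 0.05 can be reached.

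Other genes of triglyceride resynthesis, intracellular fatty acid handling and chylomicron transport were looked at beside these 7. Of 25 listed, 24 were found in GENCODE M1, all with at least 1 site. Their windows held a median of 6.5 sites, against 8 for the 7 genes and 3 for all protein-coding genes with a site. Per 10 kb of window, the medians were 0.989, 1.17 and 0.458. A site called in all 8 libraries was present at 14 of the 24, at 7 of the 7 and at 25.7% of all genes. The most sites, 14 each, were at Agpat2, an acyltransferase of phosphatidic acid synthesis, and at Apoa1 and Apoc3, apolipoprotein genes whose windows overlap and share sites. The fewest, 1 each, were at Gpat4, a glycerol-3-phosphate acyltransferase, and Sar1a, the close relative of Sar1b. The mean number of sites called was lower in CV+HFM at 23 of the 24 and equal at 1. The median ratio of CV+HFM to GF+HFM was 0.541, against 0.444 over all genes with a site. Groups did not overlap in number at 0 of 24, against 12.2% of all genes. The covered share was larger in every CV+HFM library at 4 of 24, against 3.39% of all genes, and these were Pla2g12b and the neighbours Apoa1, Apoa4 and Apoc3, whose windows share sites. It was larger in every GF+HFM library at 2 of 24, Agpat1 and Lpin2, against 6.27% of all genes.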

How the data were processed

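HNF4A ChIP-seq lists of jejunal IECs from 4 GF+HFM and 4 CV+HFM mice were analysed, grouped by the condition and replicate in their labels, and 24 further samples, input among them, were left out. Reads had been aligned by the authors to mm9 (Bowtie2), and peaks called mouse by mouse with MACS2 2.1.1.20160309 against input, of which each condition had 1 library, with a bandwidth of 300 bp and a false discovery rate of 0.05. Lists were deposited singly, without pooling. The deposited values are start and end positions in bp, in 4 columns with the chromosome and a name. The planned test assumed a column of peak strength if one was present, and width was used because none is. Reads per library are not in the lists, so depth is unknown.

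Peaks sharing at least 1 bp were merged, and a site counted as called in a library that had at least 1 peak there. Coordinates were converted to count from 1. Against the lengths in NCBIM37 all peaks on the 22 shared names fell within their chromosomes, and 9 unplaced sequence names with 475 peaks had no reference sequence. Genes follow GENCODE M1. The 7 genes, the list of 25 further genes and the motifs were chosen with earlier results of these data known. Mia3 of that list is not named in this annotation. The rule for values by library took sites over a coding start, sites called in 4 libraries of one group and 0 of the other, sites called in all 8, and otherwise up to 2 sites per gene called in the most libraries. Neighbouring genes were named where their start was nearer, and listed genes where their window held the most or fewest sites.

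Calls were compared by Fisher's exact test, and site numbers and covered shares by exact permutation over 70 relabellings, all two-sided, with Benjamini-Hochberg adjustment over all sites or genes (numpy 2.4.6 and scipy 1.17.1 in Python 3.11.15). Width ranks were compared with limma 3.58.1 in R 4.3.3, tested on simulated data of the 3445 sites with 200 shifted by 3 SD: 83.5% of the shifted sites were recovered, 6.7% of calls were false, and 0 calls were made with no site shifted. Sequence was read with pysam 0.24.0 and samtools 1.23.1, and figures drawn with matplotlib 3.10.9. Alternatives were windows of 10 kb or the gene body, sites in at least 2 libraries, a minimum peak width of 300 bp, the 4533 widest of each list, peaks covering 50% of a site, log2 width, shorter or re-centred motif windows, the replicate number as a block, and each library left out. The setting with CV+HFM replicates 1 and 3 only was added after seeing the lists.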

Additional observations from a re-analysis of the deposited data

Results flagged for a closer look

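In 9 of 56 groups of 4 libraries examined, 1 library stood far from the other 3, measured as its gap to the nearest of them over the range of the group (Dixon's criterion at 95%), where chance flags about 1 in 20 groups. For the number of sites called these were GF+HFM 3 at Mttp, with 8 sites against 7 in each of the others, GF+HFM 4 at Sar1b with 6, GF+HFM 4 at Dgat1 with 5, and GF+HFM 3 at Dgat2 with 7, and each differed from its group by 1 or 2 sites. In these 4 the other 3 libraries were tied, so that any difference meets the criterion and the rate of 1 in 20 does not apply to them. For the covered share, in bp per Mb under peaks, they were CV+HFM 1 at Sar1b with 355, CV+HFM 4 at P4hb with 645, and GF+HFM 4 at Mogat2 with 464. For the width percentile they were GF+HFM 2 at Mogat2 site 7 with 78.2 and CV+HFM 4 at Mogat2 site 10 with 97.0.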

How the results depend on the processing

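The 59 sites became 37 in gene bodies alone and 56 to 59 with 1 library left out. The count of sites present in every GF+HFM list and absent from every CV+HFM list, 1, became 5 (4.89% of all sites) where peaks had to cover 50% of a site, 3 (3.74%) with peaks at least 300 bp wide and 0 (0.517%) with the 4533 widest peaks of each list. It ran from 1 to 7 (2.80% to 10.9% of all sites) with 1 library left out. It was 2 without GF+HFM 2 (5.60%) or GF+HFM 4 (3.95%) and 7 without CV+HFM 1 (10.9%). The 2 genes with more sites in every GF+HFM library (12.2% of all genes) became 1 (10.3%) with windows of 10 kb, 0 (0.735%) with the widest peaks, and 2 to 6 (12.2% to 38.1%) with 1 library left out, at 6 without CV+HFM 1. The 2 genes with a separated covered share (9.66% of all genes) became 2 to 3 (10.95% to 24.5%) with 1 library left out, at 24.5% without CV+HFM 1. In the width test 0 of the 14 sites passed under each alternative, with smallest adjusted p of 0.126 to 0.702. For single genes, 133 of 147 values stayed on their side of the separation rule, 10 gained separation and 4 lost it. The difference changed sign or fell to 0 in 6, the 4 site numbers with the widest peaks given above and Dgat2's share without CV+HFM 4 (-16.1) and as sites per 1000. The CAAAGTCCA share of 33.9% was 28.8% in 200 bp windows, where that of all sites was 29.0%. In 300 bp windows re-centred on the bases covered by the most libraries it was 33.9%, against 36.9% of all sites. There DR1 with at most 2 mismatches was present in 20.3% of the 59 sites and 16.6% of all sites, the other way from windows at site midpoints. The labels number the replicates without saying whether mice of the same number belong together. For numbers 1 to 4, correlations of width rank were 0.053, 0.075, -0.078 and 0.14. Those of sites per gene were 0.24, 0.32, 0.0033 and -0.086. Without values for mice of unlike numbers beside them, they cannot decide whether the numbers pair the mice. With the replicate block, where p cannot fall below 0.125, the counts for site calls, site number and covered share were 0, 0 and 0. All 4 pairs of equal replicate number went one way at 4 of the 7 genes in number and 3 in share. The share of all genes that did so was not computed, so these 2 counts cannot be set against the genome. Limma with the block called 0 of the 14 sites and 0.116% of the 3445 sites. Limits are the missing read counts, the shorter CV+HFM lists, which cannot be told apart from the group, and peak widths whose minimum differs by list.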
